A study of Mus musculus with 40 samples.

Results

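The early response of the aorta to angiotensin-II (Ang-II) was examined in mice labelled SM-Cn-/-, in which smooth muscle calcineurin (Cn) had been targeted, by comparing aortas taken after 2 h of Ang-II with aortas of untreated mice of the same genotype. The comparison holds 6 of the 40 libraries of the series, 3 untreated and 3 treated, chosen by their genotype and treatment labels with no use of measured values, and all 14424 protein-coding genes measured in them were tested. The series as a whole asked which aortic transcripts respond to Ang-II in a way that needs Cn, with a genotype experiment of 22 libraries and a cyclosporin experiment that was not used here. All mice of the genotype experiment were males backcrossed to C57BL/6J, and every library is labelled as CnB1-flox, that is with Ppp3r1 flanked by loxP sites. SM-Cn-/- mice also carried Myh11-CreERT2, a tamoxifen-inducible Cre recombinase driven by a smooth muscle myosin promoter, and the libraries of the comparison mice, Cn-Ctl, are labelled as negative for that Cre. The study's methods, however, describe its Cn-Ctl mice as floxed mice without Cre used together with mice that carried the Cre and unfloxed Ppp3r1. Both genotypes had received 1 mg of tamoxifen daily for 5 days when 10 to 12 weeks old and were used 6 weeks later. Treated mice carried an osmotic minipump that delivered Ang-II at 1 µg/kg/min for 2, 6 or 24 h. Control mice of both genotypes are described as operated on in the same way with no pump put in.

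Several features of the design limit what a library stands for. Each library is a pool of 3 aortas, 9 aortas per condition, from which the adventitia and the perivascular tissue had been removed with forceps, and RNA with an integrity number under 7 was discarded. The treated Cn-Ctl mice had been kept for their systolic pressure, which had to exceed 130 mmHg, whereas treated SM-Cn-/- mice were taken whatever their pressure and dropped only where the deletion was not found, so the treated groups of the genotypes were not selected alike. If the Cn-Ctl pools held only mice without Cre, as labelled, an effect of the recombinase itself cannot be told apart from that of the deletion. Only 2 untreated Cn-Ctl libraries were given here, against 3 at 2 h. The study's methods state that a further untreated replicate was discarded because it deviated strongly in a principal component analysis. The untreated Cn-Ctl group was thus chosen in part by measured values, and it holds fewer than 9 aortas. It is the baseline of every test of the difference between genotypes. Its median SD of a gene was 0.21 log2 units over 2 libraries, against 0.32 over 3 in untreated SM-Cn-/-. Medians of SDs from groups of unequal size are not directly comparable. The effect of the exclusion was not tested.

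Ang-II binds the type 1 receptor of smooth muscle cells, which raises cytosolic calcium and activates mitogen-activated protein kinases, the contractile apparatus and, through calmodulin, the phosphatase Cn. Cn dephosphorylates the NFAT transcription factors, of which Rcan1 is a classical target, and its regulatory subunit, encoded by Ppp3r1, is needed for the stability of the catalytic subunits. Other routes reach the same tissue at early times: immediate early genes answer kinases and actin dynamics within minutes to hours, heat shock genes answer heat shock factor, and glucocorticoid target genes answer circulating corticosteroids through a nuclear receptor that binds palindromic DNA elements.

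Promoter sequences were examined for the elements of these pathways because the lists of genes described below follow these pathways. The windows run from 250 bases before to 50 bases after an annotated start and come from RefSeq on GRCm38.p6, the build that the submitters' processing notes name. The elements searched on both strands were the glucocorticoid response element, spelled as AGAACA and TGTTCT with 3 free bases between them, its shorter core ACANNNTGT, which the full element also contains, the cAMP response element TGACGTCA, a heat shock element of GAA, TTC and GAA with 2 free bases between neighbours, and the NFAT core GGAAA. The windows of 6 genes, chosen after their values were known, are printed 5′ to 3′ on the gene's strand, with 1 or 2 kinds of element per window in capitals. Where a gene had several annotated starts, the window with the most matches to the marked elements was taken. The windows of Sgk1, Map3k6 and Glul belong to glucocorticoid-responsive genes that rose in SM-Cn-/- aortas, that of Errfi1 to the gene with the largest rise on that list after Fkbp5. Those of Rcan1 and Hspe1 belong to genes whose response was smaller in SM-Cn-/- than in Cn-Ctl.
Sgk1, chr10:21993640-21993939, plus strand: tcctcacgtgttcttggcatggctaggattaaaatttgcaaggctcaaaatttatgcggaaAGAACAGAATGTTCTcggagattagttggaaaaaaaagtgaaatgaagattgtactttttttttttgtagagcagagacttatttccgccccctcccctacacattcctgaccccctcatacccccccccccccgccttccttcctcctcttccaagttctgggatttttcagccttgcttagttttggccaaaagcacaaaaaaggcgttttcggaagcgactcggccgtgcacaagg
Map3k6, chr4:133240568-133240867, plus strand: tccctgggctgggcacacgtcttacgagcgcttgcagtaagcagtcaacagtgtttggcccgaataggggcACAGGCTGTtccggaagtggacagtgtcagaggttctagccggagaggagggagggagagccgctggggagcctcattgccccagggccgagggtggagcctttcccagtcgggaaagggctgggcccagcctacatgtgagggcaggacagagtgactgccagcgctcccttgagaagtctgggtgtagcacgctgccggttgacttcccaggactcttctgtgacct
Glul, chr1:153899679-153899978, plus strand: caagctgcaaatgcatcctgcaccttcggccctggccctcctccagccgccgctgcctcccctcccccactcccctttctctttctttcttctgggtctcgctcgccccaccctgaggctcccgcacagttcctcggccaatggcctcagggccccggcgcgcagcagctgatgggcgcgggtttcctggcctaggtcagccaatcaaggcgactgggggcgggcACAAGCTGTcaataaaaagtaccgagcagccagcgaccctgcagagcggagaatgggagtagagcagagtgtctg
Errfi1, chr4:150854820-150855119, plus strand: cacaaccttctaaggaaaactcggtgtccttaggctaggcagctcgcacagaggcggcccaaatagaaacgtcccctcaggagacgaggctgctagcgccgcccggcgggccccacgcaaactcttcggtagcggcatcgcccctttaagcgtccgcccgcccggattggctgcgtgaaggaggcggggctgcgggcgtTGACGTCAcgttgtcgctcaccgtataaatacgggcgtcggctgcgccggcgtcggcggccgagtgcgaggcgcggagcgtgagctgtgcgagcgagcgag
Rcan1, chr16:92400029-92400328, minus strand: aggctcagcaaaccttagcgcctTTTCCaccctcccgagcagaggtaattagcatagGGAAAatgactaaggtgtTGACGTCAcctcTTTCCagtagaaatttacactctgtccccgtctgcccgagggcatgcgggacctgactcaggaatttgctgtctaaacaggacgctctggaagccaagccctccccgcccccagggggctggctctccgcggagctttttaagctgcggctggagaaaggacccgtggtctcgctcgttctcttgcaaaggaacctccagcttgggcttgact
Hspe1, chr1:55087898-55088197, plus strand: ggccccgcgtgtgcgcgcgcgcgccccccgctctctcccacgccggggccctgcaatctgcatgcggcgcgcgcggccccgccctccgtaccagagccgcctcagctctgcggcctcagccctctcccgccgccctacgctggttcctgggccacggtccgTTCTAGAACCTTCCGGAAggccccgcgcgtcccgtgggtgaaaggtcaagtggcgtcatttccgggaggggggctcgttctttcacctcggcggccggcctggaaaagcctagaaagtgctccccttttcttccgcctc
The capitals mark the full glucocorticoid response element in Sgk1, which begins 189 bases before the start, the shorter core in Map3k6 and Glul, at 179 and 25 bases before it, the cAMP response element in Errfi1 at 51 bases, the cAMP response element at 175 bases and 3 NFAT cores at 227, 193 and 163 bases in Rcan1, and a pair of overlapping heat shock elements at 89 and 84 bases in Hspe1. Left in lower case are 3 NFAT cores in the window of Sgk1, 2 each in those of Map3k6 and Hspe1 and 1 each in those of Glul and Errfi1, and 1 shorter glucocorticoid core in that of Rcan1. The full glucocorticoid element is rare in such windows: it lies in 3 of 32851 promoters, or 0.00913%. Among the 171 promoters of the genes raised in SM-Cn-/- aortas it lies in 1, which is 1 of the 6 of Sgk1. The shorter core lies in 9.36% of those 171 promoters and in 4.55% of the 14153 promoters of all genes tested, the cAMP element in 4.09% and 2.79%, and the NFAT core in 62.0% and 59.2%. Of the 142 raised genes 118 had a promoter in the table, so the shares describe those. Sgk1 has 6 annotated starts and Errfi1 and Rcan1 have 2 each, and the expression values do not separate the transcripts of a gene. The window of Fkbp5 held neither form of the glucocorticoid element. A match is a description of letters in a window.

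The values are the deposited signal, reads assigned to a gene and scaled to nearly a per-million basis, given per library in the order of the replicate numbers 1 to 3. The untreated SM-Cn-/- libraries held 6.47, 3.60 and 4.17 M assigned reads and the 2 h libraries 7.08, 7.19 and 5.80 M, within the range of 2.73 to 10.25 M of the genotype experiment. The median SD of a gene between replicates was 0.32 log2 units in the untreated and 0.29 in the 2 h group. The targeted gene, Ppp3r1 (chromosome 11, 17159263 to 17200375, GRCm38), read 83.5, 69.5 and 48.8 in the untreated libraries and 118, 93.5 and 70.1 at 2 h, and 104 and 78.8 in untreated and 84.8, 86.4 and 134 in treated Cn-Ctl, so its mRNA did not separate the libraries labelled SM-Cn-/- from the others, and reads summed over a gene do not show whether the floxed part was gone. The study's methods state that recombination was checked by PCR on a piece of aorta, which is not part of these data. The 8 smooth muscle markers were high in every library, with a summed signal of 21040 to 24510 in the untreated and 25480 to 32040 in the 2 h libraries. Among markers of other cells, 9 fat cell genes set 1 group apart within itself: they summed to 4166, 905 and 3229 in the untreated libraries 1 to 3 and to 1519, 1046 and 904 at 2 h. Untreated replicate 1 also stood apart from the other untreated libraries in clock genes, described below. In bulk tissue, fewer cells of a type and less RNA per cell cannot be told apart.

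The aortas labelled SM-Cn-/- responded to 2 h of Ang-II mainly with rises in transcript level. At a limma adjusted p under 0.05 (Benjamini-Hochberg over the 14424 genes), which defines a DEG here, 142 genes were higher (0.984% of the genes tested) and 21 lower (0.146%). The median log2 fold change over all genes tested was -0.01, that of the raised genes 1.18 with a range of 0.65 to 3.70, and that of the lowered genes -1.76. Fold changes are on a log2 scale after adding 0.5 to the signal, which understates the changes of low genes, and errors given after ± are standard errors of the fit with 3 libraries in each SM-Cn-/- group. In all 163 the 3 treated libraries lay on the same side of the 3 untreated ones, a separation that 20.5% of all genes also showed. Without adjustment 1870 genes, or 13.0%, had a p under 0.05. The number of DEGs rested on single libraries: 46 of the 163 were also DEGs without untreated replicate 3, 62 without 2 h replicate 1 and 70 without 2 h replicate 2, while each of the 163 kept its direction. With only untreated replicate 2, whose fat marker sum was like that of the treated libraries, 36 genes were DEGs, 35 of them higher, and 25 of the 163 were among them.

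Glucocorticoid-responsive genes led the raised set. Of the 24 genes on that list 12 rose and none fell, against 0.984% and 0.146% of all genes tested. Like the other lists, it was chosen with earlier results of these data known. The median over the 24 was a log2 fold change of 0.98. In 18 of them the 3 treated libraries were all above the untreated ones, against 11.0% of all genes. Fkbp5 (chromosome 17, 28399094 to 28517527), a co-chaperone that restrains the glucocorticoid receptor and is itself a target of it, read 22.5, 42.5 and 18.3 in the untreated libraries and 287, 410.2 and 343 at 2 h. The lowest treated library thus held several times the signal of the highest untreated one, and the rise of 13.0-fold was the largest among the raised genes. Its log2 fold change was 3.70 ± 0.28 (adjusted p = 1.01e-07).

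Tsc22d3, which encodes the anti-inflammatory leucine zipper protein GILZ, read 77.1, 56.3 and 27.1 in the untreated libraries and 216, 223 and 174 at 2 h, a log2 fold change of 2.04 ± 0.30 (adjusted p = 8.64e-04). Zbtb16, a zinc finger transcription factor induced by steroid hormones, read 42.2, 48.9 and 18.1 in the untreated libraries and 128, 135 and 196 at 2 h, a change of 2.15 ± 0.44 (adjusted p = 0.0149). Sgk1 is the serum- and glucocorticoid-regulated kinase that acts on ion channels, and 1 of its promoters is printed above. It read 67.7, 68.5 and 51.8 in the untreated libraries and 198, 179 and 143 at 2 h, a change of 1.46 ± 0.25 (adjusted p = 0.00379). In all 3 genes the groups did not overlap, and the untreated libraries spread more widely in proportion than the treated ones for Tsc22d3 and Zbtb16, with replicate 3 the lowest. Errfi1, an inhibitor of the epidermal growth factor receptor, read 131, 101 and 84.6 in the untreated libraries and 701, 599 and 474 at 2 h, a change of 2.48 ± 0.30 (adjusted p = 1.39e-04).

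The metallothioneins, which bind zinc and copper and answer metals as well as glucocorticoids, rose together. Mt2 read 14.0, 23.1 and 17.9 in the untreated libraries and 70.8, 95.7 and 142 at 2 h, a log2 fold change of 2.43 ± 0.32 (adjusted p = 3.27e-04), and Mt1 read 32.9, 55.8 and 33.6 in the untreated libraries and 89.8, 119 and 149.6 at 2 h, a change of 1.55 ± 0.30 (adjusted p = 0.00951). Map3k6, a stress-activated kinase, read 11.3, 24.6 and 12.2 in the untreated libraries and 38.8, 43.2 and 52.8 at 2 h, a change of 1.53 ± 0.27 (adjusted p = 0.00469). In these 3 genes every treated library was above every untreated one.

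The other members that passed were Ddit4, an inhibitor of mTORC1 signaling, at 1.75, Glul, glutamine synthetase, at 1.13, Dusp1, a phosphatase that turns off mitogen-activated protein kinases, at 0.72, and Sult1a1, a sulfotransferase, at 0.70. For Sult1a1 the signal was 69.5, 58.8 and 53.1 in the untreated libraries and 98.8, 104 and 91.1 at 2 h, a small change with little spread within the groups. The plot of signal by library for the 12 raised members shows them in both genotypes. Of the 12 members that missed the threshold, Hif3a, a hypoxia-inducible factor named after its value was seen, came nearest, with a log2 fold change of 1.70 and an adjusted p of 0.0561. The receptors themselves did not pass by limma, edgeR or DESeq2, nor at an unadjusted p under 0.05: Nr3c1, the glucocorticoid receptor, read 100.1, 126 and 132 in the untreated libraries and 126, 119 and 81.2 at 2 h, and Nr3c2, the mineralocorticoid receptor, 17.4, 20.03 and 19.4 in the untreated libraries and 20.8, 15.1 and 21.1 at 2 h. The list counts moved with the libraries: the 12 raised members became 7 without untreated replicate 3 and 4 (Fkbp5, Tsc22d3, Errfi1 and Glul) with only untreated replicate 2, with a list median of 0.92 and 1.19. Plasma corticosteroids were not measured in these data.

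**Figure D1:**
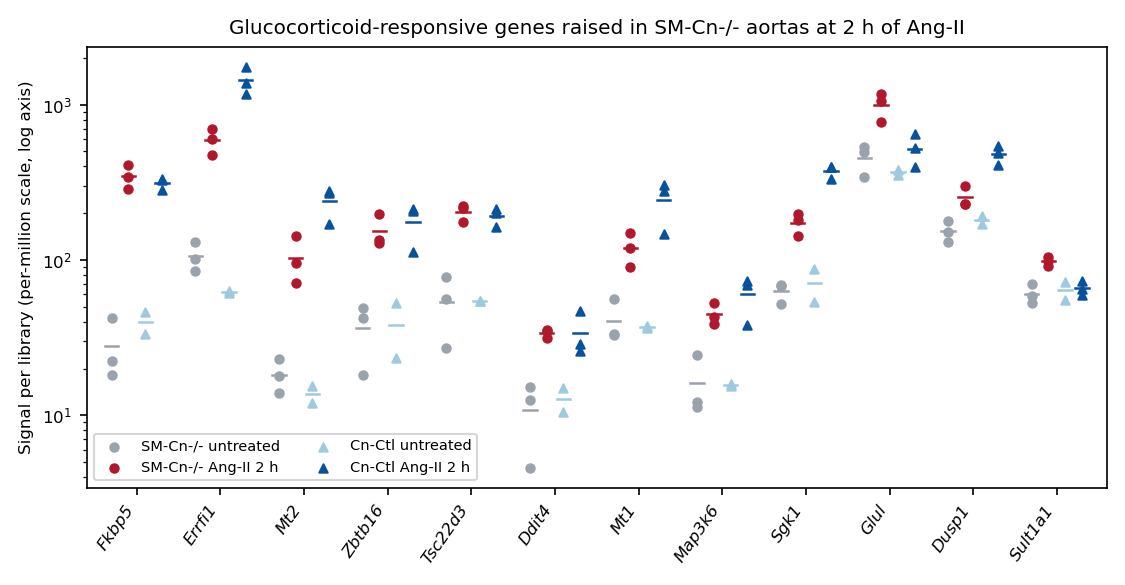
Signal per library (log axis, per-million scale) of the 12 glucocorticoid-responsive genes that rose in SM-Cn-/- aortas, with circles for SM-Cn-/- and triangles for Cn-Ctl, grey and light blue for untreated, red and dark blue for 2 h of Ang-II, and a bar at each group mean. In SM-Cn-/- aortas the 3 treated libraries lie above the 3 untreated ones for each of the 12 genes, with Fkbp5 rising from 18.3 to 42.5 in the untreated to 287 to 410 in the treated libraries.

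Outside that list, the largest rises included those of Mthfd2 and Slc25a33, whose products act in mitochondria. Mthfd2, a mitochondrial enzyme of one-carbon folate metabolism, read 9.18, 12.6 and 12.7 in the untreated libraries and 80.2, 102 and 83.6 at 2 h, a log2 fold change of 2.90 ± 0.31 (adjusted p = 3.95e-05). Slc25a33, a mitochondrial carrier of pyrimidine nucleotides, read 10.8, 9.57 and 11.3 in the untreated libraries and 49.9, 51.5 and 38.5 at 2 h, a change of 2.08 ± 0.23 (adjusted p = 3.95e-05). Both had tight groups that lay far apart, and both stayed DEGs in all 21 alternative analyses.

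Fam107a, an actin-associated protein induced by stress, read 27.1, 61.4 and 41.2 in the untreated libraries and 206, 273 and 169 at 2 h, a log2 fold change of 2.36 ± 0.34 (adjusted p = 6.85e-04). Arrdc3, an alpha-arrestin that acts in receptor trafficking, read 64.6, 89.2 and 58.7 in the untreated libraries and 458, 398 and 209 at 2 h, a change of 2.27 ± 0.34 (adjusted p = 0.00108). Usp53, a protein of cell junctions, read 26.7, 47.6 and 17.2 in the untreated libraries and 152, 152 and 102 at 2 h, a change of 2.23 ± 0.32 (adjusted p = 6.85e-04). Replicate 3 was the lowest treated library for all 3 genes, and it still exceeded every untreated library.

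Bcl2l1, whose main product Bcl-xL protects from apoptosis, read 31.6, 32.3 and 21.0 in the untreated libraries and 99.3, 110.0 and 94.9 at 2 h, a log2 fold change of 1.85 ± 0.26 (adjusted p = 6.59e-04). Dok1, an adaptor downstream of receptor tyrosine kinases, read 15.0, 20.03 and 8.42 in the untreated libraries and 41.7, 44.4 and 67.1 at 2 h, a change of 1.83 ± 0.31 (adjusted p = 0.00349). Abra, an actin-binding activator of serum response factor in striated and smooth muscle, read 25.2, 11.6 and 4.83 in the untreated libraries and 44.0, 29.4 and 53.4 at 2 h, a change of 1.81 ± 0.40 (adjusted p = 0.0222). For Abra the lowest treated value lay just above the highest untreated one.

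Among genes with low signal, A730049H05Rik read 2.76, 1.40 and 0.337 in the untreated libraries and 19.8, 11.96 and 14.1 at 2 h, Vwce 1.12, 0.128 and 2.81 in the untreated libraries and 13.4, 11.3 and 8.48 at 2 h and Gabrq, a GABA-A receptor subunit, 2.91, 0.128 and 3.26 in the untreated libraries and 8.91, 10.6 and 9.13 at 2 h. In untreated replicate 2, the shallowest of the 6 libraries, the values of Vwce and Gabrq correspond to 0 reads. Their log2 fold changes were 3.16, 2.92 and 2.32, and that of Gabrq ranged from 1.49 to 4.0 over the alternatives. A730049H05Rik lies within the span of Adamts9, on the opposite strand, and the strand of the reads is not given in the sources used here. Slc10a6, a transporter of sulfated steroids, read 8.59, 1.66 and 2.13 in the untreated libraries and 15.7, 15.6 and 10.3 at 2 h (log2 fold change 1.92) and Glt28d2 2.46, 2.42 and 3.26 in the untreated libraries and 13.1, 14.1 and 9.78 at 2 h (1.99).

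The genes of fuel switching and growth arrest moved in part. On the fuel switching list 4 of 20 genes rose and none fell, against 0.984% and 0.146% of all genes tested, shares that hold for the lists below as well. The list median was 0.38. Foxo3, a transcription factor active when insulin signaling is low, read 50.8, 73.1 and 39.0 in the untreated libraries and 161, 156 and 136 at 2 h, a log2 fold change of 1.51 ± 0.28 (adjusted p = 0.00563), and its relative Foxo1 read 99.8, 95.0 and 119.8 in the untreated libraries and 179, 158 and 172 at 2 h, a change of 0.70 ± 0.15 (adjusted p = 0.0217). Klf15, a factor that favours lipid and amino acid use, changed by 1.02, and the alpha-arrestin Arrdc2 by 1.87. Klf15 passed in 9 of 21 alternatives, with values from 0.41 with only untreated replicate 2 to 1.32 without it, and it missed the threshold when any library but that one was left out. On the growth arrest list 4 of 17 genes rose, namely Btg2 (1.04), Trp53inp1 (1.69), Sesn1 (1.10) and Ddit4, with a median of 0.33 and none lower. Trp53inp1, a stress-induced gene of the p53 pathway, read 69.4, 89.7 and 62.3 in the untreated libraries and 273, 312 and 157 at 2 h. On the metal and redox list the metallothioneins and the zinc transporter Slc39a14 (0.88) rose, 3 of 13, and the glutathione synthesis gene Gclc reached 0.90 with an adjusted p of 0.0518. On the list of Krüppel-like factors Klf6 (0.94) and Klf15 rose, 2 of 12, with a median of 0.58.

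Genes of the extracellular matrix and its turnover rose in small numbers, where 0.984% of all genes tested rose. Ctgf (chromosome 10, 24595442 to 24598683), a matricellular growth factor and target of YAP signaling, was among the most abundant DEGs and read 2649, 1381 and 632 in the untreated libraries and 6714, 4939 and 5515 at 2 h. Its treated libraries were close to each other while the untreated ones spread over more than 4-fold, and the log2 fold change was 2.10 ± 0.36 (adjusted p = 0.00349). Lox, the enzyme that cross-links collagen and elastin, read 155, 75.1 and 68.2 in the untreated libraries and 347, 245 and 238 at 2 h, a change of 1.55 ± 0.29 (adjusted p = 0.00734), and was the 1 DEG among 23 matrix genes (median 0.43). Of 16 matrix proteases and related genes the metalloproteases Adamts1 and Adamts9 rose (median 0.34). Adamts1 read 221, 238 and 167 in the untreated libraries and 609.9, 664 and 526 at 2 h, a change of 1.53 ± 0.25 (adjusted p = 0.00253), with each treated library far above the highest untreated value, and Adamts9 read 23.7, 15.4 and 17.9 in the untreated libraries and 52.0, 58.3 and 33.5 at 2 h, a change of 1.30 ± 0.22 (adjusted p = 0.00349).

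The lists of transforming growth factor beta, cytokine, growth factor and angiotensin genes held 1 DEG each, where 1.13% of all genes tested were DEGs. Tgfbr1, the type 1 receptor of transforming growth factor beta, read 93.1, 122 and 87.9 in the untreated libraries and 274, 230.3 and 171 at 2 h, a log2 fold change of 1.14 ± 0.22 (adjusted p = 0.00951), and was 1 of 29 genes of that pathway, whose median was 0.07. Csf1, the growth factor of macrophages, read 81.8, 116 and 69.3 in the untreated libraries and 212, 183 and 226 at 2 h, a log2 fold change of 1.24 ± 0.20 (adjusted p = 0.00191), and was 1 of 26 cytokine and NF-kappaB genes (median 0.14). Bdnf, a neurotrophin, changed by 1.38 with an adjusted p of 0.0499, at the edge of the threshold, passed in 8 of 21 alternatives, and was 1 of 12 growth factor genes (median 0.44). Of the 8 measured genes of the angiotensin system, Lnpep, an aminopeptidase that binds angiotensin IV, rose by 1.61. Ace, angiotensin-converting enzyme, read 241, 242 and 206 in the untreated libraries and 379.7, 489 and 449 at 2 h without overlap, but its log2 fold change of 0.93 missed the threshold (adjusted p = 0.115).

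Several list members had large values and did not pass. Dusp4, a nuclear phosphatase of mitogen-activated protein kinases, read 3.06, 2.42 and 6.63 in the untreated libraries and 1.52, 0.0675 and 0.242 at 2 h, with 0 reads in the second treated library and a log2 fold change of -2.15 ± 0.56 (adjusted p = 0.0699). Klf5, a factor of proliferating smooth muscle, read 1.42, 1.91 and 1.24 in the untreated libraries and 3.70, 6.96 and 2.67 at 2 h, a value of 1.21 ± 0.44 (adjusted p = 0.228). Ereg, a ligand of the epidermal growth factor receptor, reached 1.37 (adjusted p = 0.0818), Vegfa, the endothelial growth factor, -1.23 (0.0651), the chemokine Ccl7 -1.64 (0.238) and Nfkbia, an inhibitor of NF-kappaB, 0.86 (0.209).

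Immediate early genes responded unevenly in SM-Cn-/- aortas. Of 27 measured, 7 rose (Ctgf, Maff, Nr4a3, Btg2, Zfp36, Cyr61 and Rhob) and none fell, against 0.984% and 0.146% of all genes tested. The list median was 0.36. The AP-1 genes Fos and Fosb, which are among the fastest responders to calcium and kinase signals, did not rise. Fos read 12.8, 21.1 and 19.0 in the untreated libraries and 19.2, 15.9 and 13.8 at 2 h, a log2 fold change of -0.09 ± 0.43 (adjusted p = 0.951), and Fosb read 13.2, 13.1 and 16.5 in the untreated libraries and 11.7, 13.3 and 14.5 at 2 h, a value of -0.11 ± 0.48 (adjusted p = 0.944). In Cn-Ctl Fos went from 16.1 and 28.0 to 99.2, 428 and 312 and Fosb from 9.54 and 16.5 to 293, 449 and 236, with no overlap between the treated libraries of the genotypes in either gene.

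Tested directly with the interaction term, the response to Ang-II differed between the genotypes by -3.54 ± 0.64 (adjusted p = 0.0101) for Fos and -4.70 ± 0.73 (adjusted p = 0.00244) for Fosb, as SM-Cn-/- minus Cn-Ctl. Myc, a growth-promoting transcription factor, read 2.61, 8.04 and 3.03 in the untreated libraries and 5.72, 2.77 and 6.54 at 2 h in SM-Cn-/- and rose in Cn-Ctl from 1.68 and 1.19 to 48.6, 46.3 and 32.8, a difference of -4.27 ± 0.73 (adjusted p = 0.00607). Arc, a gene of neuronal and muscle activity, differed by -3.94 ± 0.78 (adjusted p = 0.0171). Among the members that did rise, Nr4a3, an orphan nuclear receptor, went from 12.5, 9.31 and 8.42 to 25.9, 29.1 and 15.4 in SM-Cn-/- and from 10.9 and 19.6 to 262, 288 and 175 in Cn-Ctl. Its rises of 1.15 and 3.97 differed by -2.82 ± 0.41 (adjusted p = 0.00161). Cyr61, a matricellular relative of Ctgf, read 315, 308 and 227 in the untreated libraries and 574, 474 and 652 at 2 h, a rise of 1.003 ± 0.24 (adjusted p = 0.0418). It rose by 3.25 in Cn-Ctl, a difference of -2.24 ± 0.36 (adjusted p = 0.0033). For Ctgf itself the rise of 3.66 in Cn-Ctl was larger in value, but the difference of -1.56 ± 0.54 missed the threshold (adjusted p = 0.36).

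Rhob was the 1 immediate early gene with the larger value in SM-Cn-/- aortas. Rhob, a small GTPase, read 219, 224 and 163 in the untreated libraries and 366, 371 and 391 at 2 h and changed by 0.91 ± 0.17 (adjusted p = 0.00834), against 0.67 ± 0.19 in Cn-Ctl, a difference of 0.24 ± 0.26 (adjusted p = 0.867). Zfp36, which speeds the decay of cytokine mRNA, read 60.7, 39.9 and 36.0 in the untreated libraries and 97.2, 86.9 and 88.8 at 2 h, and Maff, a small Maf factor, 19.9, 18.2 and 10.9 in the untreated libraries and 47.2, 37.8 and 42.7 at 2 h. The other 26 had the more positive value in Cn-Ctl. Over the whole list 21 were higher DEGs there, against 4.72% of all genes tested, and the median was 2.27. The interaction test was passed by 10 of the differences, against 0.513% of all genes. Without untreated replicate 3 the list held 1 DEG in SM-Cn-/- in place of 7, Ctgf, while its median was 0.28.

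Heat shock genes had mostly positive values in SM-Cn-/- aortas. Of 19 chaperones and their regulators 2 rose, Hspb1 and Hspb8, and none fell, against 0.984% and 0.146% of all genes tested. The median was 0.60, and 17 of the 19 values were above 0, against 49.0% of all genes tested. For 13 of the 19 the unadjusted p was under 0.05, against 13.0% of all genes. In 7 genes the treated libraries were all above the untreated ones, against 11.0% of all genes. Hspb1, a small heat shock protein of muscle, read 113, 118 and 76.7 in the untreated libraries and 203, 199 and 544 at 2 h, a log2 fold change of 1.47 ± 0.31 (adjusted p = 0.0186). Replicate 3 of the treated libraries stood well above the other two, which were nearly equal. Hspb8, its relative, read 170.1, 162 and 141 in the untreated libraries and 254, 248 and 270.4 at 2 h, a change of 0.71 ± 0.14 (adjusted p = 0.00951), with tight groups. In Cn-Ctl Hspb1 went from 127 and 142 to 2724, 2538 and 1338, and the difference between the responses was -2.49 ± 0.47 (adjusted p = 0.0125).

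The inducible Hsp70 genes, Hspa1a and Hspa1b, are near-identical neighbours whose reads may be shared between them. Hspa1b read 154, 67.2 and 27.7 in the untreated libraries and 167, 71.7 and 188 at 2 h, with a log2 fold change of 0.98 ± 0.42 (adjusted p = 0.316), and Hspa1a 135, 46.3 and 26.2 in the untreated libraries and 136, 61.8 and 185 at 2 h, with 1.07 ± 0.47 (adjusted p = 0.332). In both genes untreated replicate 1 lay within the range of the treated libraries. In Cn-Ctl Hspa1b reached 3268, 3295 and 2310, and the responses differed by -4.16 ± 0.63 (adjusted p = 0.0022). Dnajb1, the partner of Hsp70, read 74.1, 31.5 and 25.5 in the untreated libraries and 73.5, 56.4 and 90.3 at 2 h, a difference between the responses of -3.73 ± 0.49 (adjusted p = 8.08e-04), and for Hsph1 it was -2.47 ± 0.50 (adjusted p = 0.0196).

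All 19 genes of the heat shock list had the more positive value in Cn-Ctl. There 18 were higher DEGs, against 4.72% of all genes tested, with a list median of 2.46. Of the differences 13 passed, against 0.513% of all genes. The mitochondrial chaperonins Hspd1 and Hspe1 had log2 fold changes of 0.01 and -0.21 in SM-Cn-/- and of 1.70 and 1.63 in Cn-Ctl. They were named because the promoter of Hspe1 is printed above, after their values were seen. A heat shock element lay in the promoters of 4 of the 14 genes of the list with an entry, or 26.3% of 19 promoters, and in 0.480% of the promoters of all genes tested. The count in SM-Cn-/- depended on the untreated libraries, with 8 genes raised without replicate 1 and 0 without replicate 3.

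**Figure D2:**
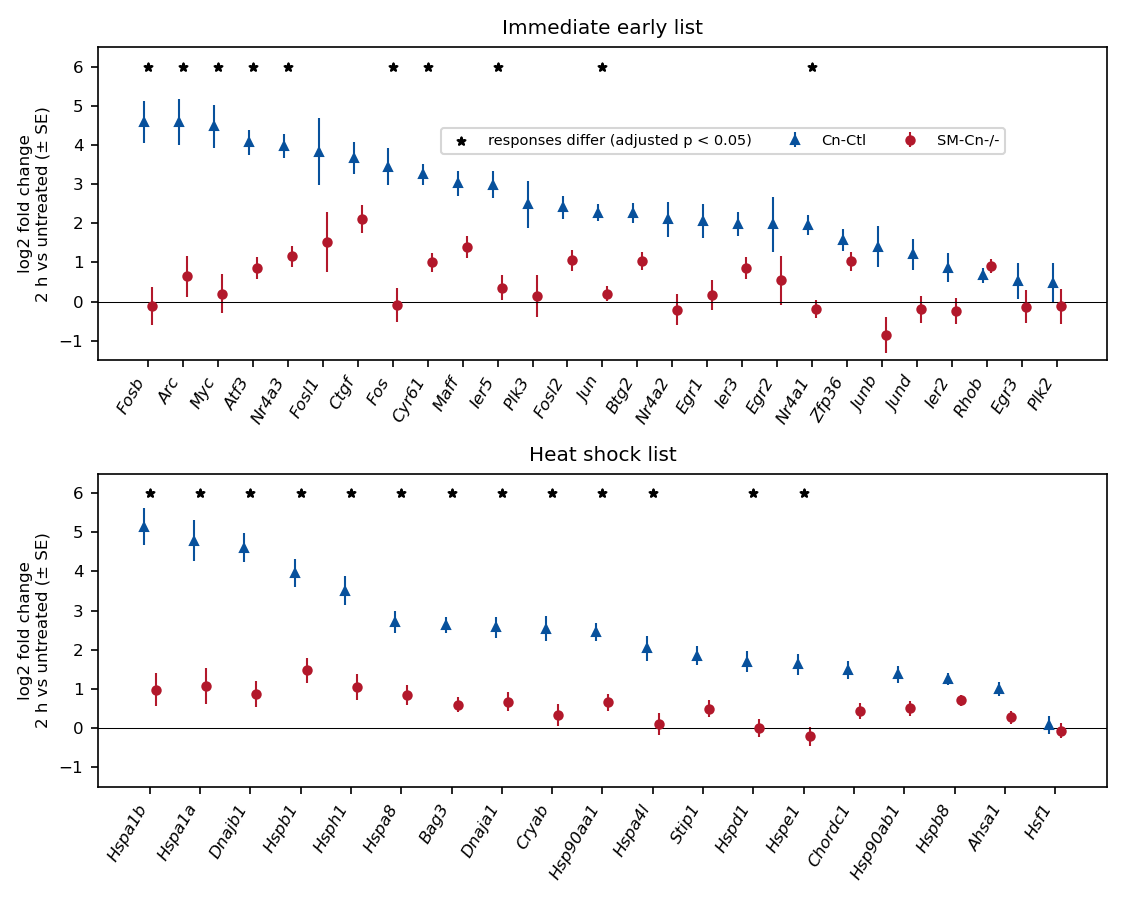
Log2 fold change at 2 h of Ang-II against untreated (y axis, ± standard error) for the 27 immediate early and 19 heat shock genes, ordered by the value in Cn-Ctl (triangles) with SM-Cn-/- as circles, and stars where the responses differed at an adjusted p under 0.05. The circles lie between -0.86 and 2.10 while the triangles reach 5.15, and 10 immediate early and 13 heat shock genes carry a star.

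The calcineurin pathway itself held no DEG in SM-Cn-/- aortas. Of 12 genes none passed by limma, edgeR or DESeq2. An unadjusted p under 0.05 was found for 3, against 13.0% of all genes tested, and the median was 0.32. Rcan1, an inhibitor of Cn that is induced through NFAT, read 38.3, 36.1 and 30.4 in the untreated libraries and 46.6, 31.7 and 55.3 at 2 h, so that 1 treated library lay within the untreated range, and its log2 fold change was 0.32 ± 0.33 (adjusted p = 0.7). In Cn-Ctl it went from 27.6 and 45.4 to 368, 404 and 380.2, and the responses differed by -3.10 ± 0.49 (adjusted p = 0.00289). The catalytic subunit genes Ppp3ca, Ppp3cb and Ppp3cc had values of -0.34, 0.33 and 0.53, Rcan2 of 0.71, and the factor genes Nfatc1 and Nfatc2 of 0.74 and 0.80, none past the threshold.

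Genes of contraction and the cytoskeleton did not pass either. None of 21 contractile genes was a DEG (2 at an unadjusted p under 0.05, against 13.0% of all genes tested, 0 by edgeR, Synpo2 by DESeq2, median 0.20). In 9 of them, however, the treated libraries were all above the untreated ones, against 11.0% of all genes tested. Acta2, smooth muscle actin, read 11496, 11630 and 9710 in the untreated libraries and 13897, 12753 and 15487 at 2 h, and Tagln, transgelin, 5057, 5455 and 4651 in the untreated libraries and 5994, 5904 and 7473 at 2 h, with log2 fold changes of 0.36 and 0.35. Synpo2, an actin-bundling protein, read 764, 747 and 587 in the untreated libraries and 1328, 1177 and 1045 at 2 h without overlap, with a log2 fold change of 0.76 ± 0.22 (adjusted p = 0.1). Of 28 genes of actin and adhesion none was a DEG in SM-Cn-/- (9 at an unadjusted p under 0.05, 0 by edgeR, Vcl and Pdlim5 by DESeq2, median 0.29), against 15 in Cn-Ctl (median 0.75). Itga5, the fibronectin receptor subunit, read 382, 431 and 295 in the untreated libraries and 689.8, 609.6 and 1142 at 2 h, with a log2 fold change of 1.10 ± 0.32 (adjusted p = 0.114) against 3.03 in Cn-Ctl, and the difference of -1.92 missed the threshold (adjusted p = 0.0947).

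Other lists held no DEG in SM-Cn-/-: regulators of G protein signaling (10 genes, median -0.32), prostanoid and vasoactive genes (19, 0.09), the unfolded protein response (17, 0.20) and the cell cycle (12, -0.11). They held 3, 2, 5 and 0 genes at an unadjusted p under 0.05, against 13.0% of all genes tested, and none by edgeR or DESeq2. Ptgs2, inducible cyclooxygenase, read 15.9, 29.2 and 12.5 in the untreated libraries and 70.2, 84.8 and 46.6 at 2 h with no overlap, but its log2 fold change of 1.83 ± 0.49 had an adjusted p of 0.0798. Rgs5, a pericyte and smooth muscle regulator of G protein signaling, read 1430, 1102 and 926 in the untreated libraries and 1843, 1941 and 1689 at 2 h. Of 16 feedback regulators of mitogen-activated protein kinases only Errfi1 and Dusp1 rose (median 0.25), against 0.984% of all genes tested.

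Clock genes need their library values, because 1 untreated library was unlike the other untreated ones. No gene of 19 was a DEG at 2 h (7 at an unadjusted p under 0.05, against 13.0% of all genes tested, Dbp by edgeR, Dbp and Per3 by DESeq2). The median was within 0.01 of 0. Arntl, the positive arm of the clock, read 10.2, 1.15 and 0.561 in the untreated libraries and 7.03, 4.53 and 10.3 at 2 h, and Nfil3, a clock-linked repressor, 24.4, 2.17 and 3.26 in the untreated libraries and 29.6, 16.7 and 43.9 at 2 h. Dbp, an output gene of the opposite phase, read 129, 344 and 346 in the untreated libraries and 72.4, 124 and 114 at 2 h, and Per3, named after its values were seen, 85.2, 229.8 and 208 in the untreated libraries and 79.2, 93.4 and 70.2 at 2 h. In all 4 genes untreated replicate 1 lay at or near the values of the treated libraries. The untreated Cn-Ctl values of Arntl (0.364 and 0.821) and Dbp (314 and 336) were like those of untreated replicates 2 and 3. At 2 h Cn-Ctl read 19.8, 14.3 and 6.66 for Arntl and 48.2, 77.8 and 60.6 for Dbp. Of the 19 genes 3 were higher and 4 lower DEGs in Cn-Ctl at 2 h, against 4.72% and 1.51% of all genes. Without untreated replicate 1 of SM-Cn-/-, 3 of the 19 were DEGs there, with Nfil3 higher and Dbp and Per3 lower. The time of day at which the mice were killed is not given in the sources used here, and its part in any result was not tested.

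The 21 lowered genes included Hcar1 and Adrb3, receptors that are typical of fat cells. Hcar1, the lactate receptor of fat cells, read 18.4, 6.76 and 19.7 in the untreated libraries and 1.38, 1.42 and 1.70 at 2 h, a log2 fold change of -2.82 ± 0.48 (adjusted p = 0.00349). Adrb3, the beta-3 adrenergic receptor that starts lipolysis and thermogenesis, read 59.5, 22.6 and 53.1 in the untreated libraries and 8.48, 4.12 and 9.13 at 2 h, a change of -2.51 ± 0.45 (adjusted p = 0.00469). Coq8a, a mitochondrial protein of coenzyme Q synthesis, read 258, 71.6 and 209 in the untreated libraries and 47.0, 48.0 and 43.4 at 2 h, a change of -1.76 ± 0.37 (adjusted p = 0.0185). In each of the 3 genes untreated replicates 1 and 3 were far above replicate 2, as in the fat marker sums, and replicate 2 was still above the treated libraries.

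None of the 9 fat markers was a DEG (6 at an unadjusted p under 0.05, against 13.0% of all genes tested, Plin1 by edgeR, Plin1, Lep and Adipoq by DESeq2). All 9, however, were lower in value at 2 h, with a median of -1.45. Plin1, a coat protein of lipid droplets, read 175, 40.2 and 162 in the untreated libraries and 49.1, 35.6 and 21.2 at 2 h. Lep, leptin, read 22.9, 2.93 and 9.10 in the untreated libraries and 1.81, 0.608 and 1.86 at 2 h and Cfd, adipsin, 273, 97.6 and 307 in the untreated libraries and 82.4, 47.8 and 94.9 at 2 h. With only untreated replicate 2 the median was -0.07. A fit with the summed fat marker level as a covariate, chosen after seeing the data, gave 71 DEGs, 67 higher and 4 lower, and 65 of the 163 were among them. The 4 were Adrb3, Hcar1, Rrad and Cxxc5, of which the last 2 are named for this reason. Fat markers were at 998 and 1630 in the untreated and 1028 to 1189 in the 2 h libraries of Cn-Ctl, where Adrb3 went from 14.8 and 18.3 to 8.08, 5.75 and 5.89 and Hcar1 from 4.30 and 7.57 to 3.69, 2.13 and 3.44. The part of fat tissue in the lowered genes was not tested beyond these values.

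The other lowered genes named for the size of their change were of low signal, at most 21.7 in any untreated library. Aplnr, the receptor of the vasoactive peptide apelin, read 13.8, 3.70 and 8.20 in the untreated libraries and 0.0725, 0.878 and 0.404 at 2 h, with the first treated value at 0 reads, a log2 fold change of -3.17 ± 0.69 (adjusted p = 0.0222). Cxcl9, an interferon-induced chemokine, read 15.5, 5.996 and 10.7 in the untreated libraries and 3.26, 0.608 and 1.86 at 2 h, a change of -2.29 ± 0.51 (adjusted p = 0.026), and Rab17, a small GTPase of epithelial transport, 6.64, 5.49 and 10.7 in the untreated libraries and 1.67, 1.15 and 0.889 at 2 h, a change of -2.20 ± 0.49 (adjusted p = 0.0235). Mmd2 (-2.96), Fahd1, a mitochondrial enzyme (-1.85), and Cenpa, the centromeric histone (-2.33), also fell. Gm14308 had the largest fall, -4.24 ± 0.86 (adjusted p = 0.014), with 19.9, 21.6 and 9.99 in the untreated libraries and 0.0725, 1.15 and 0.242 at 2 h, but it belongs to a family of closely similar zinc finger genes among which reads can be divided, and in Cn-Ctl it read 0.0728 and 2.65 in the untreated libraries. With only untreated replicate 2 none of the 21 lowered genes passed, and the 1 gene that was lower there, Slc17a3, named after its values were seen, was not among the 21.

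**Figure D3:**
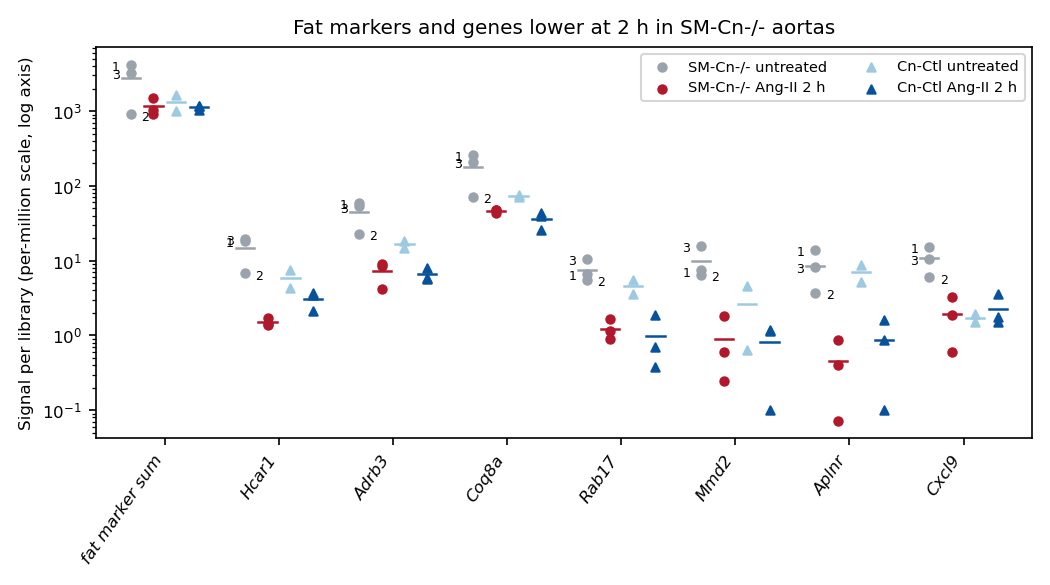
Signal per library (log axis, per-million scale) of the summed fat markers and of 7 lowered genes, with circles for SM-Cn-/- (the replicate number beside the untreated ones), triangles for Cn-Ctl, and a bar at each group mean. Untreated replicates 1 and 3 stand above replicate 2 in the fat marker sum (4166 and 3229 against 905), in Hcar1, Adrb3 and Coq8a.

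Against Cn-Ctl, whose libraries are separate from those above, the raised genes of SM-Cn-/- were largely shared in direction. At 2 h Cn-Ctl had 681 higher (4.72% of genes tested) and 218 lower (1.51%) DEGs. Of the 142 genes raised in SM-Cn-/-, 96 were also raised in Cn-Ctl, which is 67.6% of the first set and 14.1% of the second, and 99.3% had a positive log2 fold change there, against 51.0% of all genes tested. Of the 21 lowered genes 6 were lowered in Cn-Ctl, 28.6% of the first set and 2.75% of the second, and 85.7% were negative there against 49.0% of all genes. The raised genes had medians of 1.18 in SM-Cn-/- and 1.35 in Cn-Ctl, and since they were picked by their values in SM-Cn-/-, that choice favours the former. Glucocorticoid-responsive genes had 12 DEGs in each genotype, with medians of 0.98 and 1.38, but the sets were not the same. Glul and Sult1a1 were DEGs only in SM-Cn-/-, and Cdkn1a and Cebpd only in Cn-Ctl. For none of these genes did the difference between genotypes pass the interaction test.

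The difference between the responses was tested for each gene. It passed for 74 genes (0.513% of those tested), 71 with the less positive response in SM-Cn-/- (0.492%) and 3 with the more positive one (0.0208%). Of the 71, 10 were DEGs in SM-Cn-/- and 59 had a log2 fold change above 0 there (49.0% of all genes did), with medians of 0.34 in SM-Cn-/- and 2.46 in Cn-Ctl, on values that the selection itself pushes apart. Of the 142 raised genes 67 had the larger value in SM-Cn-/-, and none of these differences passed: it was 0.73 ± 0.42 for Fkbp5 (adjusted p = 0.722), 0.81 ± 0.47 for Mthfd2 (0.727), 1.48 ± 0.51 for Fam107a (0.36) and 0.92 ± 0.41 for Foxo3 (0.578). With 2 untreated Cn-Ctl libraries such differences were not resolved at this spread.

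Genes that rose in both genotypes and less in SM-Cn-/- are exemplified by Errfi1, Klf6 and Abra. Errfi1 rose from 131, 101 and 84.6 to 701, 599 and 474 in SM-Cn-/- and from 63.6 and 61.2 to 1374, 1742 and 1170 in Cn-Ctl, a difference of -2.002 ± 0.46 (adjusted p = 0.0483). Klf6 rose from 226, 342 and 235 to 566, 478 and 476 and from 239.8 and 281 to 1169, 1282 and 1273, a difference of -1.31 ± 0.27 (adjusted p = 0.0209). Abra reached 44.0, 29.4 and 53.4 in SM-Cn-/- and 179, 281 and 281 in Cn-Ctl, a difference of -2.66 ± 0.60 (adjusted p = 0.0427). The differences of Errfi1 and Abra lay near the threshold and passed in 11 and 12 of 26 alternatives, that of Klf6 in 19. Some of these alternatives left 1 untreated library in a group. Tnfaip6, a hyaluronan-binding protein of inflammation, read 12.8, 4.72 and 1.91 in the untreated libraries and 21.1, 10.2 and 19.3 at 2 h and was no DEG in SM-Cn-/- (1.59, adjusted p = 0.106), while the difference was -3.86 ± 0.69 (adjusted p = 0.00817).

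The 3 genes with the opposite difference included Syt15, a synaptotagmin, and Zfp788, a zinc finger gene. Syt15 read 46.4, 54.7 and 57.2 in the untreated libraries and 32.8, 26.0 and 39.2 at 2 h in SM-Cn-/- and fell in Cn-Ctl from 61.5 and 50.5 to 7.28, 8.27 and 10.9, a difference of 1.91 ± 0.40 (adjusted p = 0.0213), and for Zfp788 it was 1.40 ± 0.31 (adjusted p = 0.0421). None of the 3 was a DEG in SM-Cn-/-. The number of differences rested on single libraries: 16 of the 74 also passed without untreated replicate 2 of Cn-Ctl, 28 without replicate 3 and 36 without 2 h replicate 2, and 30 without SM-Cn-/- 2 h replicate 2.

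**Figure D4:**
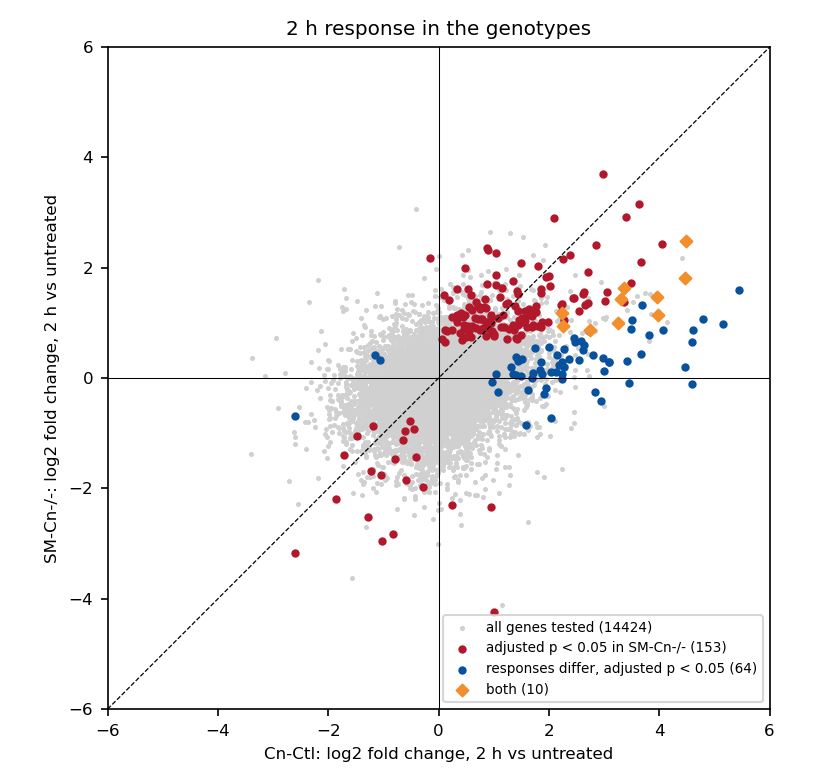
Log2 fold change at 2 h of Ang-II in SM-Cn-/- (y axis) against Cn-Ctl (x axis) for the 14424 genes tested, with DEGs of SM-Cn-/- in red, genes whose responses differed in blue, both in orange and equality dashed. Of the 142 raised DEGs 141 lie right of 0, and 71 of the 74 genes with different responses lie below the dashed line.

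The 2 h changes were followed in the SM-Cn-/- aortas of 6 h and 24 h, 3 libraries each. These comparisons share the untreated or the 2 h libraries with the one above, so the values are set side by side and nothing is counted across them. Against untreated aortas the glucocorticoid list had a median of 0.98 at 2 h, 1.29 at 6 h and 0.55 at 24 h, the immediate early list 0.36, 0.62 and 0.04, and the heat shock list 0.60, 0.30 and -0.08. In tests against 2 h, 203 genes differed at 6 h (1.41% of those tested) and 526 at 24 h (3.65%). The 6 h count was 6 without 2 h replicate 2, 10 without 2 h replicate 1, 9 without 6 h replicate 2 and 12 without 6 h replicate 3, and it was 705 without 2 h replicate 3 and 1125 without 6 h replicate 1.

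Fkbp5 stood at log2 fold changes of 3.70, 3.03 and 2.22 against untreated at 2, 6 and 24 h, and the level at 24 h was lower than at 2 h (adjusted p = 0.00597), whereas the 6 h level did not differ at the threshold (adjusted p = 0.183). The metallothioneins were higher at 6 h than at 2 h: Mt2 stood at 2.43, 3.72 and 2.68 (adjusted p for 6 h against 2 h = 0.0477), and Mt1 at 1.55, 2.99 and 1.99 (0.0263). Tsc22d3 stood at 2.04, 2.24 and 0.73, with a lower level at 24 h than at 2 h (adjusted p = 0.0168). Hspb1 was also higher at 6 h than at 2 h, at 1.47 and 2.93 (adjusted p = 0.0269). These rises from 2 h to 6 h lay near the threshold. For 6 h against 2 h, single genes were not followed through the alternatives.

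Other rises were lower at 24 h than at 2 h. Errfi1 stood at 2.48, 1.38 and 0.39, Ctgf at 2.10, 1.29 and 0.01, and Adamts1 at 1.53, 0.68 and -0.21, each lower at 24 h than at 2 h (adjusted p = 9.01e-04, 0.00327 and 8.81e-04). Slc25a33 likewise went from 2.08 to 0.50 (adjusted p = 9.01e-04), and Adamts9 was already down at 6 h, from 1.30 to 0.02 (adjusted p = 0.0084). Mthfd2 stood at 2.90, 2.29 and 2.25 with no difference past the threshold (adjusted p = 0.269 and 0.249 against 2 h). Of the lowered genes, Adrb3 rose between 2 h and 24 h, from -2.51 to -0.64 against untreated (adjusted p = 0.0215), where the fat marker sums at 24 h were 2437 to 4016.

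**Figure D5:**
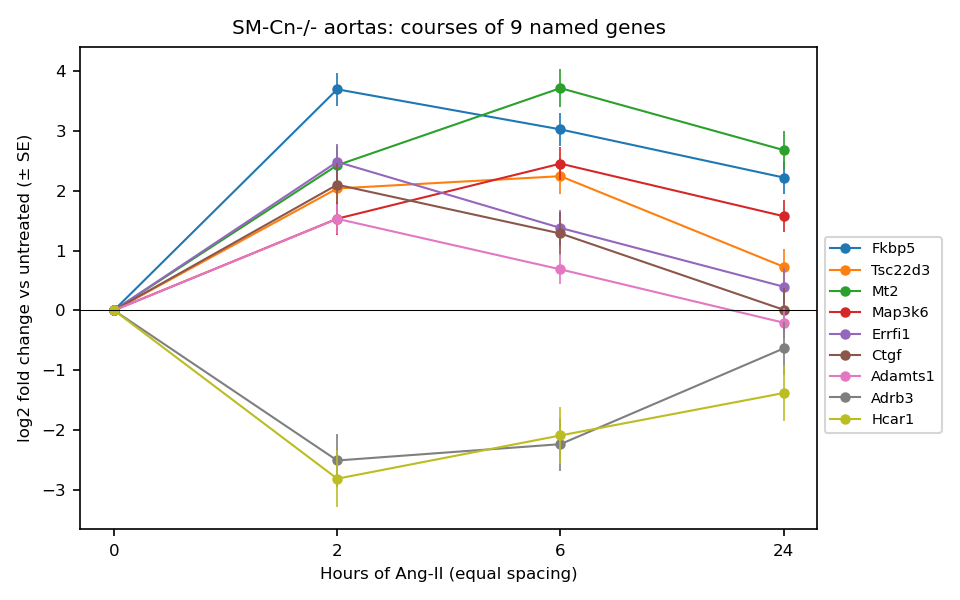
Log2 fold change against untreated (y axis, ± standard error) at 2, 6 and 24 h of Ang-II in SM-Cn-/- aortas for 9 named genes, with 0 h set to 0 and the time points drawn at equal spacing. Fkbp5, Errfi1 and Ctgf have their highest values at 2 h, Mt2, Map3k6 and Tsc22d3 at 6 h, and Hcar1 and Adrb3 stay below 0 at all 3 times.

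No marker list of another cell type held a DEG at 2 h by limma. Apart from the fat markers none did by edgeR or DESeq2, with 0 to 2 genes per list at an unadjusted p under 0.05, against 13.0% of all genes tested. The summed signal of 11 endothelial markers was 649 to 892 in the untreated and 793 to 976 in the 2 h libraries, and that of 9 fibroblast markers 1329 to 2113 and 2140 to 2571, without overlap. Macrophage markers (12 genes) summed to 225 to 361 and 292 to 319, and the 5 blood markers to 77.2 to 455 and 159 to 364. Neutrophil and lymphocyte markers were at or near 0, with sums of 3.14 to 7.66 and 3.93 to 8.59 in the untreated and 4.32 to 7.39 and 1.52 to 2.90 in the 2 h libraries. Schwann cell (40.1 to 61.1 and 36.7 to 74.8), striated muscle (32.4 to 45.4 and 22.2 to 28.1, without overlap) and mesothelial markers (3.19 to 41.0 and 3.41 to 25.3) were low. The fibroblast sums were higher and the striated muscle sums lower at 2 h. The smooth muscle sums given earlier were also higher, and the low lymphocyte sums lower, both without overlap. The part of these shifts in the changes above was not tested.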

How the data were processed

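The signal values were deposited by the authors as a gene by library table, each value being assigned reads plus 0.5 over a scaled library size, near to a per-million scale. Dividing each by the value of 1 read gave whole reads for 100% of values (tolerance 0.01), and these recovered reads were used only in edgeR and DESeq2 alternatives. The submitters' processing notes name Bowtie 0.12.7 and RSEM 1.16. Of 17402 genes listed, 14424 were protein coding in GENCODE vM21 (GRCm38) and were kept, 2952 were of another biotype and 26 had no entry. Counts, fold changes and p-values came from limma 3.58.1 in R 4.3.3 on log2(signal + 0.5), with all 8 groups of the genotype experiment in 1 fit, a trend of the variance with intensity, and p-values adjusted over the genes tested by the Benjamini-Hochberg method. The interaction term was the 2 h change in SM-Cn-/- minus that in Cn-Ctl. Replicates were pools, so p-values measure the spread between pools. The fit was tested on simulated data first.

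The genes named are the 20 raised and 10 lowered DEGs with the largest changes among those with a group mean of at least 5 and no overlap between the groups, the DEGs and the 4 largest changes of the gene lists, the subunits of Cn and Rcan1, the genes with the largest differences between the genotypes; others, and those named for a count under an alternative, were chosen after their values were seen. Members and lists were chosen with earlier results of these data known. Alternatives changed the pseudocount, filter, biotypes, scaling, tool (edgeR 4.0.16, DESeq2 1.42.0), samples in the fit, intensity trend and library weights, added a replicate block, or left out libraries. The cyclosporin table was not used, and 1 gene is not reported here.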

Additional observations from a re-analysis of the deposited data

Results flagged for a closer look

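For 20 of the named genes the response to 2 h of Ang-II differed between SM-Cn-/- and Cn-Ctl aortas at an adjusted p under 0.05 in limma's interaction test, and each is given here as the log2 change in SM-Cn-/- minus that in Cn-Ctl. The difference was -4.704 for Fosb, -4.267 for Myc, -3.94 for Arc, -3.538 for Fos and -2.819 for Nr4a3 among immediate early genes. Heat shock genes followed with -4.165 for Hspa1b, -3.734 for Dnajb1, -3.709 for Hspa1a, -2.486 for Hspb1, -2.465 for Hsph1, -1.839 for Hspe1 and -1.694 for Hspd1. The difference was -3.86 for Tnfaip6, -3.105 for Rcan1, -2.66 for Abra, -2.244 for Cyr61, -2.002 for Errfi1 and -1.313 for Klf6. It was positive for Zfp788 (1.397) and Syt15 (1.913), whose levels fell in Cn-Ctl. Groups of 2 or 3 libraries are too small for a test of single outlying libraries.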

How the results depend on the processing

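The number of DEGs at 2 h in SM-Cn-/- aortas depended on the fit, while the direction did not: each of the 163 kept its sign in every alternative in which it was measured. In place of 163, DESeq2 gave 392 (264 higher and 128 lower), a fit without the intensity trend 82, library quality weights 1731 (1008 and 723) and only the 2 groups compared 164 higher and 63 lower, so the excess of raised over lowered genes was smaller there. After seeing the data, a fat marker covariate (71) and a fit without untreated replicates 1 and 3 (36) were added; the latter takes the lone untreated library to vary like the other groups. Leaving out 1 library gave 50 to 221, the last without untreated replicate 2 (116 higher and 105 lower). The number of genes whose responses differed, 74, was 35 under quantile normalization, 176 with DESeq2, 31 without the intensity trend, 518 with library weights and 25 without untreated replicates 1 and 3, and 16 to 79 when 1 library was left out, with the same assumption where 1 untreated Cn-Ctl library remained. The counts at 6 h and 24 h against 2 h moved further. At 6 h against 2 h, 203 became 97 with edgeR, 684 with DESeq2, 15 with only the groups compared, 37 without the trend, 2598 with weights, 75 with the fat covariate and 6 to 1125 on leaving out 1 library. At 24 h against 2 h, 526 became 1213 with DESeq2, 308 without the trend, 4346 with weights, 184 with the fat covariate and 71 to 1069 on leaving out 1 library. The cause was not tested for any of these. A replicate block gave 275 genes at 2 h, 511 for 6 h and 796 for 24 h against 2 h. It gave 68 differences between genotypes. The deviations of same-numbered untreated and 2 h libraries correlated by 0.163, 0.0651 and 0.0329, and those of differently numbered ones by -0.118 to 0.0494. Treated replicate 3 correlated best with untreated replicate 2. With 3 libraries a group these values do not settle whether the numbers pair the samples, and the main fit used no block. The genes Fkbp5, Vwce, Mthfd2, Errfi1, Ctgf, Slc25a33, Tsc22d3 and Adamts9 were DEGs in all 21 alternatives. Scalings moved the median of all genes by less than 0.1. With 3 pools a group, 3 to 7 M reads and a median standard error of 0.32, changes well under 2-fold were mostly not resolved, and a p above the threshold does not show that a gene was unchanged.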
